A study of Mus musculus with 10 samples.

Results

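Transcripts of lysosomal genes were compared between injured and control mouse cerebral cortex, where the injury was a traumatic brain injury (TBI). The set held 52 genes, taken by symbol from a deposited table of 55401 genes. It comprised 21 soluble hydrolases, 4 soluble cofactors that are not enzymes themselves, 11 proteins of the lysosomal membrane, 15 subunits of the proton pump, and the transcription factor Tfeb. The cathepsin proteases were not part of the set.

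RNA sequencing covered the cortex of 10 mice, with 5 libraries in the TBI group and 5 in the control group, and each library was its own sample. The sample titles call the controls Sham and the series design calls them naive mice, so it is open whether these mice were operated on. The sources used here do not give the strain, sex or age of the mice, how the injury was made, or how long after it the cortex was taken. Levels are in FPKM, fragments per kilobase of transcript scaled to the library's total, which can be compared between genes because they are scaled to length. Total estimated counts per library, in megacounts, ran from 47.6 to 71.3. The totals did not differ beyond their spread (60.2 ± 10.32 megacounts in TBI and 63.8 ± 4.48 in Sham, SD, n = 5, exact two-sided permutation test, p = 0.444). About 4 counts appear to stand for 1 sequenced fragment. The least covered tested gene of the set had 254 counts in its lowest library.

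The lysosome is an acidic compartment in which proteins, lipids, glycans and nucleic acids from endocytosis, phagocytosis and autophagy are broken down. Soluble hydrolases do the cutting, heavily glycosylated membrane proteins line and connect the compartment, and the vacuolar proton pump acidifies it. Tfeb and its relatives switch on many of these genes through a short E-box in their promoters. In brain, lysosomal genes are expressed in all cell types, microglia are rich in lysosomal hydrolases, and neurons carry large amounts of the proton pump, which also loads synaptic vesicles.

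Promoters are shown first because the E-box is the site through which Tfeb is known to act on lysosomal genes, although most of the set did not hold it in the window searched. Promoters from 250 bases before to 50 bases after the transcription start, from RefSeq on GRCm38.p6, were at hand for 46 of the 52 genes. No promoter was matched for Asah1, Atp6v0d2, Atp6v1b2, Atp6v1c1, Atp6v1h and Npc1. The E-box core CACGTG, which reads the same on both strands, occurred in 13 of the 46 genes, or 28.3%. It occurred in 11.6% of the 10959 tested genes with a promoter and in 8.09% of all 27025 genes with one. The longer TCACGTG, searched on both strands and always overlapping the core, was found in all 13 of these genes, against 741 of the 1268 tested genes with the core. Of 19 matches in the set, 14 lay within 100 bases before the start, in 9 genes. Below are the 150 bases before the start for 6 genes, 3 whose level rose in TBI (Lamp1, Naglu and Lgmn) and 3 that did not pass the test (Glb1, Mcoln1 and Atp6v0b), written 5′ to 3′ on the gene's strand with the E-box core in capitals:
Lamp1 (chr8:13159011-13159160, plus strand): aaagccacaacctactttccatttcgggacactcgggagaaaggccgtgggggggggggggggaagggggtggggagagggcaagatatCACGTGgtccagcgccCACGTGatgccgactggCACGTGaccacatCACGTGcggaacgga
Naglu (chr11:101069944-101070093, plus strand): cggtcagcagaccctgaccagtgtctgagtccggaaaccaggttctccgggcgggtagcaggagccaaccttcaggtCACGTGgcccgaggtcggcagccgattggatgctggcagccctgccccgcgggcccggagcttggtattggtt
Lgmn (chr12:102439093-102439242, minus strand): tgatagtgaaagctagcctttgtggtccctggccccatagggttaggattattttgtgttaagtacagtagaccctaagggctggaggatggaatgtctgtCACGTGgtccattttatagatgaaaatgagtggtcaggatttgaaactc
Glb1 (chr9:114400928-114401077, plus strand): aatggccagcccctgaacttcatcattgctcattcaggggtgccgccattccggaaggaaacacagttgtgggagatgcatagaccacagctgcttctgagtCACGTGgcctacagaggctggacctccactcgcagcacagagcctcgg
Mcoln1 (chr8:3500369-3500518, plus strand): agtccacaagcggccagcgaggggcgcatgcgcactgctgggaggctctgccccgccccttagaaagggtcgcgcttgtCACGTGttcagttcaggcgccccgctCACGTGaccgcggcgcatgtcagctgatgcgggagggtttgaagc
Atp6v0b (chr4:117887330-117887479, minus strand): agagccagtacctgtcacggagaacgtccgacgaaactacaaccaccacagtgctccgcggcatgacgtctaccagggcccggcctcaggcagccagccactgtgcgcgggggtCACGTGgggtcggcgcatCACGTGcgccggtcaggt
Lamp1 carried 4 cores between positions -61 and -15, the most of any promoter in the set. Mcoln1 and Atp6v0b carried 2 each, and the Lgmn match is in 1 of its 2 promoters. Cln3, outside the printed sequences, also carried 2, both in 1 of its 2 promoters. By outcome in TBI, 3 of the 15 genes that rose held the core (20%), as did 10 of the 31 others with a promoter (32.3%). A match describes letters in a window and does not show that a factor is bound.

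**Figure D1:**
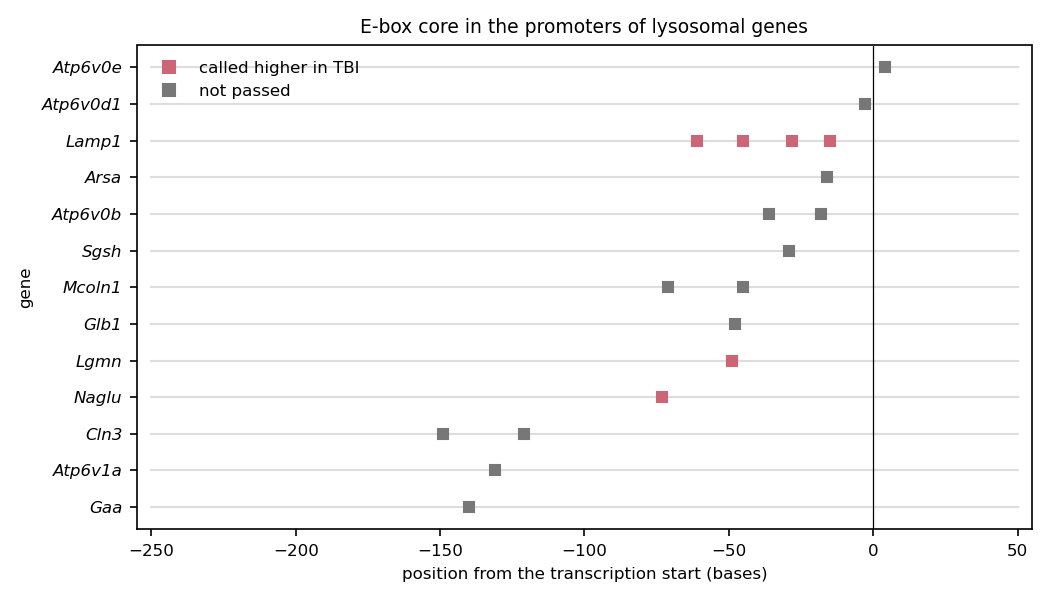
Position of the E-box core in the promoters of the 13 lysosomal genes that hold it, in bases from the transcription start (x axis), 1 row per gene; each square is the first base of a match, red for genes higher in TBI and grey for genes that did not pass. Matches gather within 100 bases before the start, and red and grey genes both hold them.

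Injured cortex had more transcript of some digestive enzymes, cofactors and membrane proteins of the lysosome, led in the set by Cd68, Laptm5 and Grn. None of the 14 tested proton pump subunits of the set passed the test, while Tcirg1, a pump subunit outside the set, rose 1.99-fold. In whole tissue, more cells of a type and more RNA per cell cannot be told apart. In edgeR's quasi-likelihood test over 16316 genes, with a gene called at a Benjamini-Hochberg adjusted p under 0.05, 15 of the 51 tested genes of the set were higher in TBI and 0 were lower. That is 29.4% of the tested set, where 4.04% of all tested genes were called, 3.57% higher and 0.472% lower. Atp6v0d2 was too low to be tested. Of 21 hydrolases 7 rose, of 4 cofactors 3 rose, of 11 membrane proteins 5 rose, and of 14 tested pump subunits 0 rose or fell, while Tfeb did not pass. Median log2 changes were 0.15 for the hydrolases, 0.56 for the cofactors, 0.24 for the membrane proteins and -0.05 for the pump, against -0.01 over all tested genes. Before adjustment, 24 genes of the set had a p under 0.05 (23 higher and 1 lower), 2 of them pump subunits, where 15% of all tested genes did, 9.57% higher and 5.42% lower. For all 15 called genes the lowest TBI library lay above the highest Sham library. The same was true of 18 genes of the set (35.3%) and of 5.6% of all tested genes. The reverse order held for 0 genes of the set and for 0.729% of all tested genes. Changes were moderate, with 3 called genes at 2-fold or more and 10 at 1.5-fold or more.

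**Figure D2:**
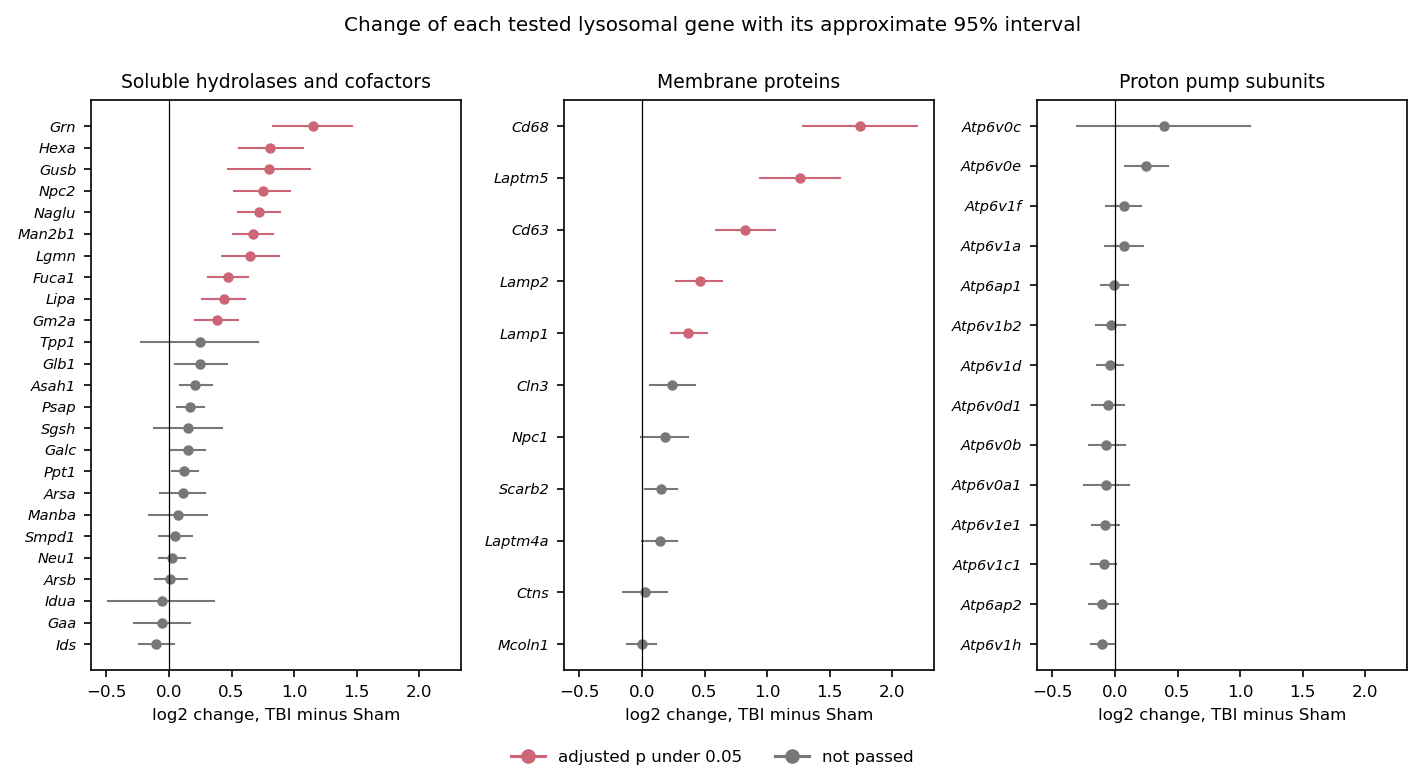
Log2 change, TBI minus Sham (x axis), of the tested lysosomal genes of the 3 classes, with approximate 95% intervals as bars; red genes passed at an adjusted p under 0.05 and grey genes did not. Red genes fill the upper part of the soluble and membrane panels and are absent from the pump panel, where all genes other than Atp6v0c and Atp6v0e lie between -0.10 and 0.07.

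Of the soluble enzymes that trim glycans, Hexa changed most. Hexa is the alpha subunit of beta-hexosaminidase, which cleaves GM2 ganglioside. It stood at 59.2, 43.0, 44.7, 36.2 and 45.2 FPKM in TBI replicates 1 to 5, and at 27.7, 24.3, 23.3, 24.4 and 26.7 FPKM in Sham replicates 1 to 5. The groups did not overlap, and TBI replicate 1 was highest (1.76-fold, log2 change 0.81, approximate SE 0.11, edgeR adjusted p = 0.0021). Man2b1, the lysosomal alpha-mannosidase, was at 9.19, 8.85, 8.94, 7.69 and 7.31 FPKM in TBI against 5.11, 5.01, 5.08, 5.45 and 5.05 FPKM in Sham. Both groups were tight and far apart (1.59-fold, log2 change 0.67, approximate SE 0.07, edgeR adjusted p = 5.7e-04). Fuca1, the alpha-fucosidase, was at 11.4, 10.1, 9.79, 9.62 and 9.29 FPKM in TBI against 6.70, 6.88, 6.47, 7.52 and 7.74 FPKM in Sham. Every TBI library lay above every Sham library (1.38-fold, edgeR adjusted p = 0.0043). Among the other glycosidases of glycoproteins and gangliosides, Glb1, the beta-galactosidase, was at 8.85 ± 1.13 against 7.22 ± 0.525 FPKM and did not pass (edgeR adjusted p = 0.219). The sialidase Neu1 (12.3 ± 0.473 against 11.8 ± 0.462 FPKM) and the beta-mannosidase Manba (1.35 ± 0.111 against 1.25 ± 0.163 FPKM) had overlapping groups.

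Of 6 enzymes that take glycosaminoglycans apart, Naglu and Gusb rose and 4 did not pass. Naglu, the N-acetylglucosaminidase of heparan sulfate, was at 3.71, 3.70, 4.19, 3.75 and 3.93 FPKM in TBI and at 2.16, 2.28, 2.31, 2.18 and 2.47 FPKM in Sham. Its TBI libraries were close to each other, TBI replicate 4 included (1.65-fold, log2 change 0.72, approximate SE 0.08, edgeR adjusted p = 5.4e-04, the smallest of the 52 genes). Gusb, the beta-glucuronidase, was at 6.0, 3.78, 5.32, 3.55 and 5.05 FPKM in TBI and at 2.44, 2.36, 2.48, 2.95 and 3.01 FPKM in Sham. Its TBI values were spread, with replicates 2 and 4 nearest to Sham (1.74-fold, log2 change 0.80, approximate SE 0.15, edgeR adjusted p = 0.012). The iduronidase Idua was at 2.42 ± 0.625 against 2.47 ± 0.556 FPKM. The sulfatases Ids (84.6 ± 6.17 against 88.3 ± 6.60 FPKM), Sgsh (1.69 ± 0.259 against 1.49 ± 0.146 FPKM) and Arsb (21.3 ± 1.21 against 20.6 ± 1.15 FPKM) overlapped between the groups. With Arsa, which acts on sulfatide of myelin (7.81 ± 0.739 against 7.04 ± 0.664 FPKM), 0 of the 4 sulfatases of the set passed.

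Of 6 enzymes of lipid breakdown, counted apart from the ganglioside glycosidases such as Hexa and Glb1 above, only Lipa passed the test. Lipa, the acid lipase that frees cholesterol from its esters, was at 3.68, 3.11, 3.16, 2.97 and 3.08 FPKM in TBI and at 2.19, 2.32, 2.12, 2.60 and 2.29 FPKM in Sham. TBI replicate 1 stood above the other TBI libraries, and Sham replicate 4 came nearest to TBI (1.35-fold, edgeR adjusted p = 0.0099). The acid ceramidase Asah1 had all TBI libraries (16.3 to 18.8 FPKM) above all Sham libraries (13.4 to 15 FPKM) but missed the threshold (1.16-fold, edgeR adjusted p = 0.069). It passed in DESeq2 and in limma. Ppt1, the palmitoyl-protein thioesterase, also had separate groups, at 29.7 ± 1.21 against 26.5 ± 0.593 FPKM, with an edgeR adjusted p of 0.233. It shares 129 exon bases with the opposite-strand gene Cap1, which was at 56.7 ± 23.6 against 27.1 ± 3.61 FPKM, and the part of that overlap was not tested. The acid sphingomyelinase Smpd1 (27.2 ± 1.11 against 25.5 ± 1.96 FPKM) and Galc, the galactosylceramidase of myelin lipids (2.27 ± 0.0933 against 1.99 ± 0.157 FPKM), overlapped.

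The other soluble enzymes of the set cleave proteins or glycogen. Lgmn, the asparaginyl endopeptidase legumain, which also activates other lysosomal proteases, was the most abundant hydrolase that rose. It stood at 91.3, 67.8, 84.6, 61.7 and 72.5 FPKM in TBI and at 44.6, 45.3, 44.5, 51.4 and 48.8 FPKM in Sham. All TBI libraries were higher, and TBI replicates 1 and 3 were farthest from Sham (1.57-fold, log2 change 0.65, approximate SE 0.10, edgeR adjusted p = 0.0050). Tpp1, the tripeptidyl peptidase, gave 10.4, 15.8, 8.97, 13.4 and 8.97 FPKM in TBI and 11.8, 8.08, 7.26, 12.8 and 7.29 FPKM in Sham. High and low libraries occurred in both groups, and its interval for the log2 change ran from -0.22 to 0.71. The glycogen-degrading glucosidase Gaa was at 49.8 ± 6.48 against 50.5 ± 6.40 FPKM and did not pass.

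Cofactors that hand lipids to the enzymes or shape the compartment rose in 3 of 4 cases. Grn encodes progranulin, the precursor of the lysosomal granulins. It was at 24.5, 26.9, 29.7, 16.0 and 21.4 FPKM in TBI and at 9.71, 11.1, 9.54, 11.2 and 10.6 FPKM in Sham. Sham libraries were tight while TBI replicate 4 was well below the other TBI libraries (2.21-fold, log2 change 1.15, approximate SE 0.14, edgeR adjusted p = 0.0012). Npc2, which carries cholesterol to the membrane protein Npc1, was at 20.9, 15.6, 17.4, 14.3 and 16.9 FPKM in TBI and at 9.79, 8.90, 9.36, 10 and 11.3 FPKM in Sham. The groups were apart by more than the spread within either (1.68-fold, log2 change 0.75, approximate SE 0.10, edgeR adjusted p = 0.0019). Gm2a, the activator that presents GM2 ganglioside to beta-hexosaminidase, was at 21.7, 17.7, 19.6, 17.1 and 19.0 FPKM in TBI and at 13.5, 13.4, 13.7, 15.6 and 15 FPKM in Sham. The distance between the groups was small for Gm2a (1.30-fold, edgeR adjusted p = 0.017), and its call was lost without TBI replicate 3, Sham replicate 1 or Sham replicate 2 (edgeR adjusted p = 0.0505, 0.0511 and 0.0517). Psap, the precursor of the saposins, was the most abundant gene of the set at 637.4 ± 21.3 against 551.8 ± 29.6 FPKM. All its TBI libraries (612.6 to 663.1 FPKM) lay above all Sham libraries (510.3 to 592.5 FPKM), with a 1.12-fold difference that did not pass (edgeR adjusted p = 0.1). It did pass in DESeq2, in limma and without Sham replicate 4.

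**Figure D3:**
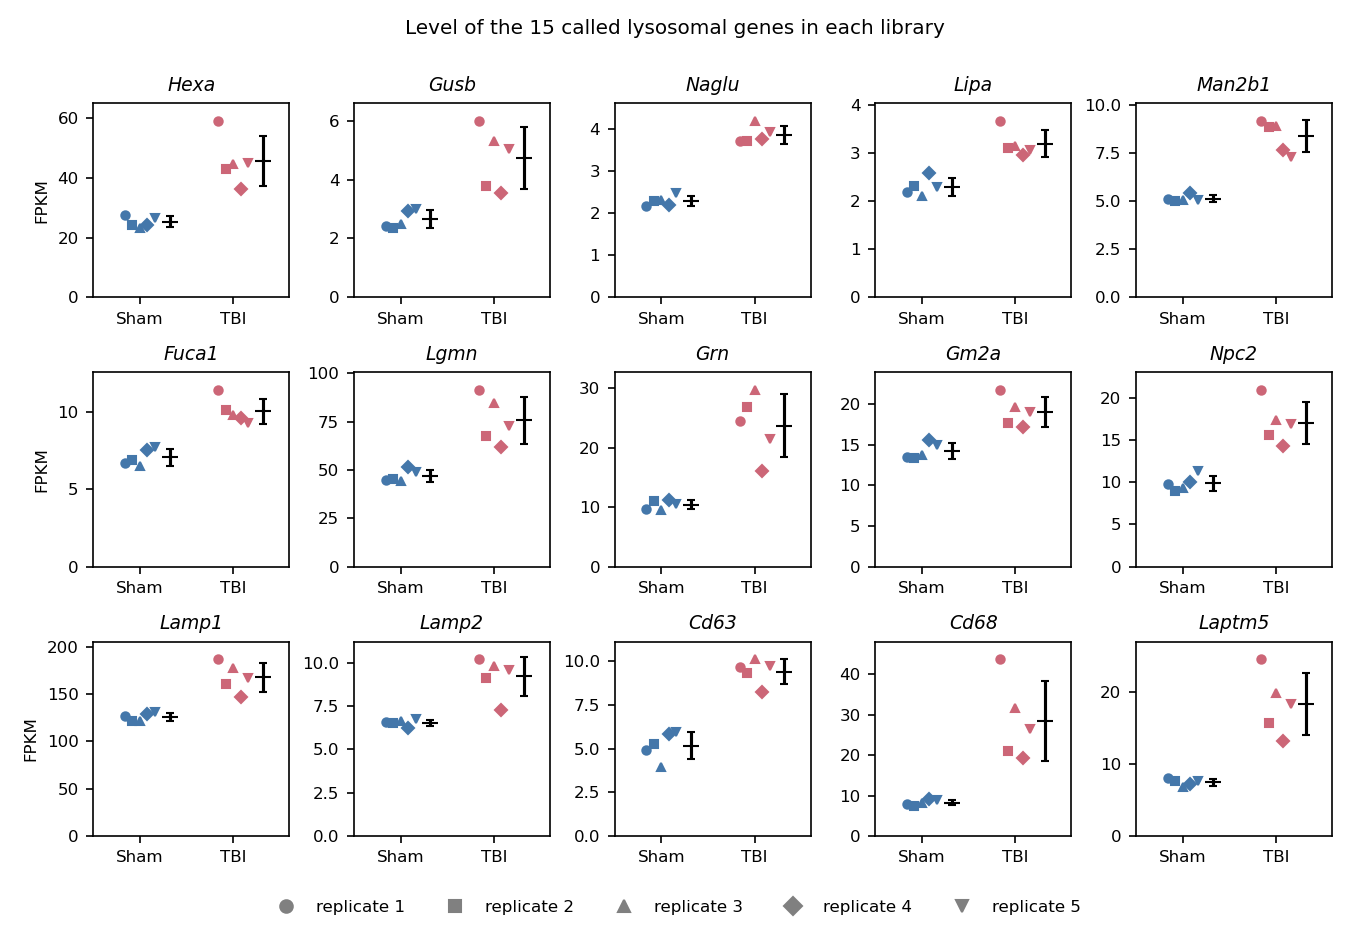
FPKM (y axes, from 0) of the 15 called lysosomal genes in the 5 Sham (blue) and 5 TBI (red) libraries; symbols mark the replicate number and the black bar is the mean ± SD. In each panel all TBI libraries lie above all Sham libraries, with TBI replicate 1 highest for 12 genes and TBI replicate 4 lowest for 12.

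Membrane proteins held the largest changes of the set. Cd68, the macrosialin of phagocyte lysosomes (mm10 chromosome 11, 69664213 to 69666153), was at 43.7, 20.9, 31.7, 19.4 and 26.5 FPKM in TBI and at 7.87, 7.47, 8.08, 9.08 and 8.83 FPKM in Sham. TBI values ranged widely but all lay far above Sham (3.35-fold, log2 change 1.74, approximate SE 0.21, edgeR adjusted p = 8.8e-04). Laptm5, a transmembrane protein of hematopoietic lysosomes, was at 24.6, 15.8, 19.9, 13.2 and 18.4 FPKM in TBI and at 8.03, 7.70, 6.82, 7.23 and 7.66 FPKM in Sham. The order of the TBI libraries was the one seen for Cd68 (2.39-fold, log2 change 1.26, approximate SE 0.14, edgeR adjusted p = 8.1e-04). Its relative Laptm4a, expressed at 88.7 ± 4.41 against 78.5 ± 6.13 FPKM, overlapped between the groups and did not pass (edgeR adjusted p = 0.338). Cd63, a tetraspanin of late endosomes and lysosomes, was at 9.66, 9.33, 10.1, 8.22 and 9.70 FPKM in TBI and at 4.90, 5.25, 3.96, 5.83 and 5.92 FPKM in Sham. Sham replicate 3 was the lowest library, and no TBI library came near the Sham range (1.77-fold, edgeR adjusted p = 0.0014).

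Lamp1 and Lamp2, the abundant glycoproteins that coat the inner face of the membrane, both rose by a modest amount. Lamp1 (mm10 chromosome 8, 13159161 to 13175338) was at 186.5, 160.8, 177.2, 146.4 and 166.4 FPKM in TBI and at 126.5, 121.8, 121.4, 129.0 and 131.0 FPKM in Sham (1.29-fold, log2 change 0.37, approximate SE 0.07, edgeR adjusted p = 0.0089). Lamp2, which also serves chaperone-mediated autophagy, was at 10.2, 9.14, 9.80, 7.30 and 9.61 FPKM in TBI and at 6.57, 6.51, 6.62, 6.25 and 6.73 FPKM in Sham (1.37-fold, log2 change 0.46, approximate SE 0.08, edgeR adjusted p = 0.010). In Lamp2 the TBI replicate 4 library stood just above the Sham range. The log2 ratio of Lamp2 to Lamp1 averaged -4.19 ± 0.08 in the injured and -4.27 ± 0.07 in the Sham libraries, and the gap of 0.08 did not pass (exact two-sided permutation test, p = 0.127, adjusted over 2 pairs 0.254). The 6 membrane proteins that did not pass had log2 changes of at most 0.24. The cholesterol exporter Npc1 was at 5.98 ± 0.603 against 5.14 ± 0.410 FPKM, and Scarb2, which delivers glucocerebrosidase, at 18.8 ± 1.05 against 16.5 ± 1.11 FPKM. The calcium channel Mcoln1 (9.19 ± 0.305 against 8.96 ± 0.444 FPKM), the cystine exporter Ctns (5.18 ± 0.413 against 4.96 ± 0.398 FPKM) and Cln3 (1.74 ± 0.0757 against 1.44 ± 0.139 FPKM) had overlapping groups too.

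The proton pump is a rotary enzyme with a cytosolic V1 part that splits ATP, a membrane V0 part that moves protons, and accessory proteins. Its subunits were abundant, with a median Sham level of 59.7 FPKM against 9.87 for the soluble class, 7.49 for the membrane proteins and 4.39 over all tested genes. Of 7 V1 subunits, 5 tested V0 subunits and 2 accessory proteins, 0 passed in either direction. Without Atp6v0c, the log2 changes of the 13 others ran from -0.10 to 0.25 and their approximate 95% intervals stayed between -0.25 and 0.42. The catalytic subunit Atp6v1a was at 67.3 ± 5.30 against 62.5 ± 4.51 FPKM and its partner Atp6v1b2 at 121.4 ± 7.85 against 121.0 ± 3.41 FPKM. The stalk and rotor subunits Atp6v1d, Atp6v1e1 and Atp6v1f differed by at most 0.08 on the log2 scale. Atp6v1h, a regulatory subunit, came nearest to a fall, at 11.5, 11.3, 11.6, 12.2 and 10.9 FPKM in TBI and 11.9, 12.3, 12, 12 and 11.7 FPKM in Sham. Its groups overlapped through TBI replicate 4 (edgeR adjusted p = 0.315). For Atp6v1c1 the values were 33.5, 35.4, 35.4, 34.9 and 33.2 FPKM in TBI and 36.3, 36.4, 35.3, 37.4 and 33.8 FPKM in Sham, again with overlap (edgeR adjusted p = 0.368). The accessory proteins Atp6ap1 (57.0 ± 2.95 against 55.7 ± 2.49 FPKM) and Atp6ap2 (77.2 ± 4.30 against 80.4 ± 3.96 FPKM) did not pass.

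In the V0 part, the small subunit Atp6v0e had the smallest p of the pump. It stood at 7.10, 6.76, 6.94, 6.25 and 6.88 FPKM in TBI and at 5.47, 5.09, 5.13, 6.45 and 5.68 FPKM in Sham. A single Sham library, replicate 4, overlapped the TBI range (1.19-fold, edgeR adjusted p = 0.127), and without it the gene passed (edgeR adjusted p = 0.0255). The ring-forming Atp6v0c was at 59.6, 66.9, 67.4, 201.6 and 108.6 FPKM in TBI and at 85.1, 94.0, 62.4, 68.5 and 65.0 FPKM in Sham. Its positive log2 change of 0.39 rested on TBI replicate 4 and was -0.01 without it. Atp6v0b, which forms the ring together with Atp6v0c, was at 55.9 ± 2.44 against 57.0 ± 5.13 FPKM. The log2 ratio of Atp6v0c to Atp6v0b was 0.69 ± 0.69 in TBI and 0.38 ± 0.34 in Sham (exact two-sided permutation test, p = 0.429, adjusted over 2 pairs 0.429).

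Some subunits of the pump have paralogs that take the same position. Atp6v0d1, the general d subunit, was at 129.9 ± 3.73 against 131.5 ± 9.5 FPKM and overlapped. Atp6v0d2, known from osteoclasts and macrophages, had estimated counts of 28, 24, 65, 0 and 28 in TBI replicates 1 to 5 and 0 counts in all 5 Sham libraries. Pooled over the TBI group it had 145 counts. Scaled to total counts, that is 12.8-fold above a floor of 12 counts over the Sham group, or 3 fragments if 4 counts stand for 1. The ratio pools the 5 mice of each group, so it does not cover the spread between mice, and no test was run. The a subunit most used in neurons, Atp6v0a1, was at 37.0 ± 1.68 against 37.8 ± 4.49 FPKM. Its paralog Tcirg1, the a3 subunit of osteoclasts and macrophages and not one of the 52 genes, rose from 2.25 ± 0.335 to 4.61 ± 0.873 FPKM (1.99-fold, edgeR adjusted p = 0.0020). Of 10 pump genes outside the 52, 6 could be tested and Tcirg1 alone was called in edgeR. The groups of the other tested ones overlapped. Atp6v0a2 was at 10 ± 2.20 against 7.71 ± 1.78 FPKM, and Atp6v0e2 at 138.4 ± 8.10 against 143.4 ± 6.04 FPKM. Atp6v1c2 was at 0.819 ± 0.429 against 0.757 ± 0.348 FPKM, and Atp6v1g1 at 61.4 ± 4.12 against 60.5 ± 5.07 FPKM. Atp6v1g2 was at 56.6 ± 22.4 against 44.0 ± 2.61 FPKM. Its TBI replicate 1 was at 96.5 FPKM and the other TBI libraries at 44.6 to 48.3 FPKM.

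**Figure D4:**
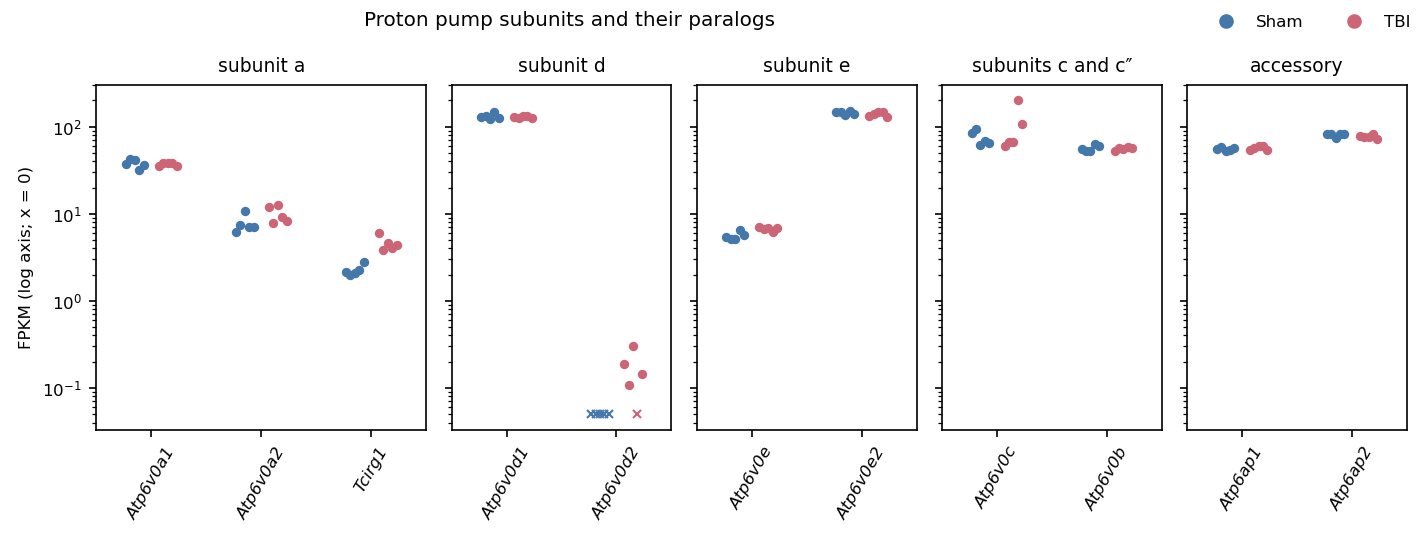
FPKM on a log axis of proton pump subunits and their paralogs in the 5 Sham (blue) and 5 TBI (red) libraries, grouped by position in the pump; a cross marks a library at 0. Tcirg1 and Atp6v0d2 are the least abundant genes of their panels and lie higher in TBI, while the abundant subunits overlap apart from the high TBI libraries of Atp6v0c.

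Tfeb itself, the activator of lysosomal genes, was low at 1.35, 1.22, 0.906, 0.834 and 1.14 FPKM in TBI and 0.995, 0.633, 0.867, 0.884 and 0.924 FPKM in Sham. The groups overlapped (log2 change 0.30, interval -0.06 to 0.66, edgeR adjusted p = 0.432). Of 6 further tested genes of that regulatory route 0 passed in edgeR. Mitf, a relative of Tfeb, was at 1.19 ± 0.399 against 0.753 ± 0.343 FPKM, and the GTPase Rragd at 18.6 ± 3.74 against 21.9 ± 3.05 FPKM. Another relative, Tfec, was too low to be tested, at 0.039 ± 0.0208 against 0.00351 ± 0.00484 FPKM. Its TBI libraries all lay above its Sham libraries, with 74 counts in TBI and 8 in Sham.

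Lysosomal genes outside the 52 had called members mainly among the hydrolases. Of 27 tested further hydrolases and soluble proteins 7 rose and 0 fell, or 25.9% against the 3.57% of all tested genes. Ifi30, the thiol reductase of antigen processing, rose 2.62-fold to 6.64 ± 1.55 FPKM, and the mannosidase Man2b2 1.51-fold to 9.69 ± 1.17 FPKM (edgeR adjusted p = 0.0014 and 0.0019). The nuclease Rnaset2b rose 1.75-fold to 5.57 ± 1.28 FPKM (edgeR adjusted p = 0.0082), a value that is uncertain because its near copy Rnaset2a can share reads. Of 28 further membrane proteins 1 rose, or 3.57%, the same share as over all tested genes. This was the peptide transporter Slc15a3, which went from 0.222 ± 0.0847 to 1.13 ± 0.390 FPKM (edgeR adjusted p = 0.0019). It passed the filter on low values through the TBI libraries alone, and 1541 bases of its exons overlap the opposite-strand gene Tmem132a, which was at 55.5 ± 4.76 against 47.1 ± 4.55 FPKM. The route that sorts enzymes to the lysosome, with the mannose 6-phosphate receptors and the phosphotransferase Gnptab (10.7 ± 0.735 against 9.60 ± 0.581 FPKM), had 0 called genes of 14. Ap1s2, an adaptor subunit of that route, was at 9.10 ± 1.67 against 7.73 ± 1.85 FPKM.

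The injured libraries differed among themselves in the same order for most called genes. TBI replicate 1 was the highest TBI library for 12 of the 15 and TBI replicate 3 for the other 3, while TBI replicate 4 was the lowest for 12. Relative to the Sham mean, the median log2 ratio of the 15 genes was 0.90, 0.66, 0.82, 0.52 and 0.77 in TBI replicates 1 to 5. It lay between -0.08 and 0.09 in the Sham libraries. The tested pump subunits had medians between -0.07 and 0.04 in the TBI libraries, without that order. Most markers of microglia were also higher in TBI. Of 14 microglia markers, 12 rose and P2ry12 and Siglech did not pass. Their summed level was 678.6, 429.9, 531.2, 345.7 and 459.0 FPKM in TBI replicates 1 to 5 against 145.9 to 167.5 FPKM in Sham. Of 10 macrophage and monocyte markers 5 could be tested and 2 rose. Their sum was 31.4 to 109.7 FPKM in TBI and 7.35 to 8.92 in Sham, most of it from Lyz2, since without that gene it was 5.19 to 7.27 and 2.74 to 3.71 FPKM. Of the markers too low to test, Ms4a7 had all TBI libraries above all Sham libraries, at 0.342 ± 0.106 against 0.0458 ± 0.0211 FPKM. The rest overlapped between the groups. Cd163 was at 0.506 ± 0.191 against 0.39 ± 0.14 FPKM and F13a1 at 0.588 ± 0.243 against 0.382 ± 0.0787 FPKM. Plac8 was at 0.0923 ± 0.0847 against 0.00663 ± 0.0148 FPKM. The monocyte receptor Ccr2 was at no more than 0.155 FPKM in any library. The part of these cells in the lysosomal result was not tested.

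**Figure D5:**
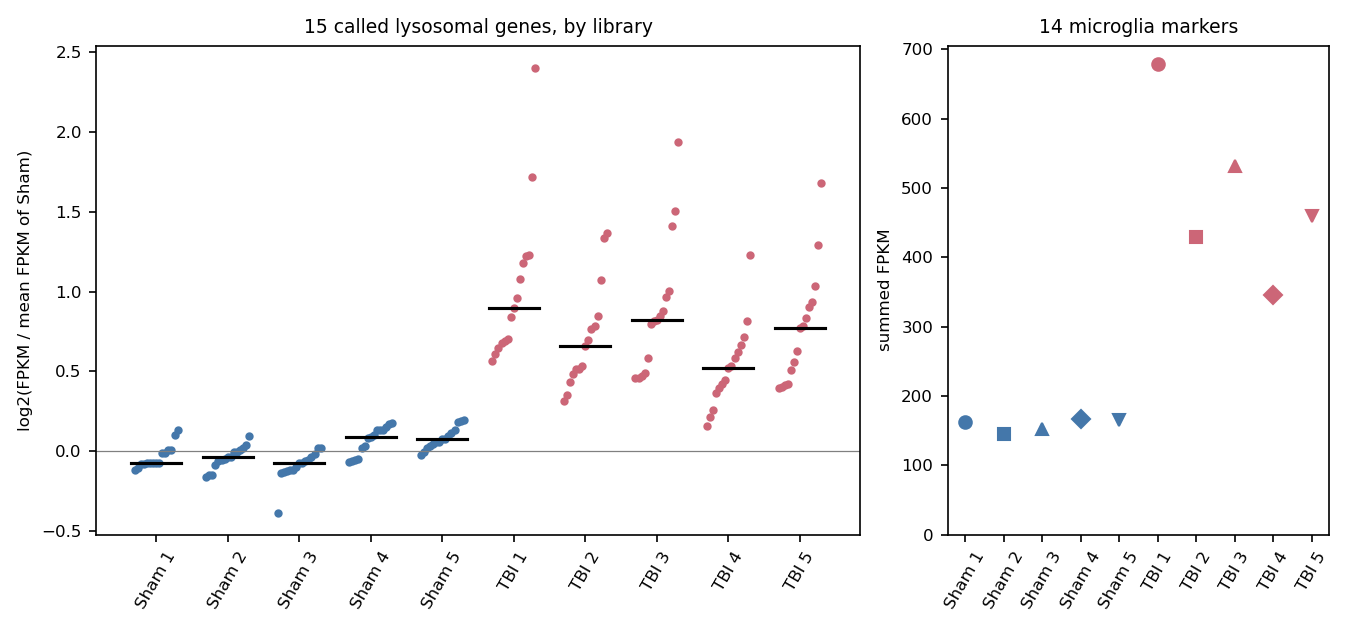
Left, log2 ratio of FPKM to the Sham mean for the 15 called lysosomal genes (points; bar, median) in each library; right, summed FPKM of 14 microglia markers in the same libraries. TBI replicate 1 is highest and TBI replicate 4 lowest among the injured libraries in both panels, and the Sham libraries lie together. Most of the sum in the right panel comes from C1qa, C1qb, C1qc and Tyrobp.

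Markers of the main cell types of cortex were detected. Of 11 neuron markers 0 rose and 1 fell, with summed levels of 1455.2 to 1596.0 FPKM in TBI and 1560.6 to 1731.1 FPKM in Sham. Of 10 astrocyte markers 3 rose and 7 did not pass. They summed to 621.1 to 775.3 FPKM in TBI and 364.8 to 430.9 FPKM in Sham. Much of the rise in that sum came from Gfap, at 259.7 ± 67.4 FPKM in TBI and 38.3 ± 6.0 FPKM in Sham. Of 10 oligodendrocyte markers 0 passed (537.7 to 875.4 against 537.3 to 811.8 FPKM), and of 7 endothelial markers 1 rose (37.5 to 44.8 against 31.6 to 40 FPKM). Only 1 of 8 neutrophil markers and 1 of 8 lymphocyte markers were high enough to test. Csf3r, a receptor of neutrophils that microglia also express, rose 3.58-fold (edgeR adjusted p = 6.1e-04), and the lymphocyte marker Cd4 did not pass. The neutrophil markers summed to 4.08 to 8.03 FPKM in TBI and 1.53 to 1.9 FPKM in Sham, most of it from Csf3r. S100a9 was at 0.357 ± 0.212 against 0.0954 ± 0.213 FPKM and S100a8 at 0.112 ± 0.0679 against 0.0838 ± 0.131 FPKM, and the granule gene Elane had 0 in all libraries. The lymphocyte markers summed to 1.32 to 5.50 against 1.34 to 7.31 FPKM.

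Some of the called genes share exon bases with a gene on the opposite strand in GENCODE M21, and whether reads were counted by strand is not given in the sources used here. Lamp1 shares 249 bases with Grtp1, which was at 0.912 ± 0.0788 against 0.822 ± 0.212 FPKM. Hexa shares 255 bases with Tmem202, at 0.750 ± 0.220 against 0.794 ± 0.164 FPKM. Grn shares 68 bases with Fam171a2, at 16.0 ± 1.72 against 15.4 ± 1.21 FPKM. The levels of these neighbours overlapped within their spread and did not pass (edgeR adjusted p = 0.86, 0.88 and 0.94).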

How the data were processed

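Total RNA from mouse cerebral cortex was sequenced as paired ends on an Illumina NovaSeq, per the labels' protocols. The tools named in the submitters' processing notes are cutadapt 1.9, HISAT2 and StringTie, and the build named there is mm10. The order of steps and the counting tool are not given in the sources used here. Estimated counts per gene, deposited by the authors, hold no fractions, and 42.6% of values from 1 to 12 were 4, 8 or 12, so about 4 counts appear to stand for 1 fragment. The deposited FPKM values were scaled by the authors, per the file headers; the fill value 0.0001 with a count of 0 was read as 0. No sample column was left out.

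Genes with FPKM of at least 0.5 in at least 5 libraries were tested, 16316 in all, with edgeR 4.0.16 (TMM, quasi-likelihood, group only, two-sided) in R 4.3.3. P-values were adjusted by Benjamini-Hochberg over all tested genes, threshold 0.05. Each SE was taken from the log2 change and the F statistic, so it and the 95% intervals are approximate. The functions were tested on simulated data. Each library is a separate mouse per the series design, and ± is SD, n = 5; the smallest p the exact permutation test allows with 5 against 5 is 0.0079. Floors cover counting error only.

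Members, lists and classes were chosen with earlier results of these data known. Every called gene, the genes nearest the threshold in classes with fewer than 3 calls, and up to 4 called genes of each further list were named by rule. 1 item that the rule names is not reported here. Psap, Asah1, the uncalled pump paralogs, the neutrophil markers and the enzyme groups by substrate were picked after their values were seen. Alternatives were other scalings (DESeq2 size factors, upper quartile), DESeq2 1.42.0, limma 3.58.1 on log2(FPKM + 1), log2(FPKM + 0.1) or log2(TPM + 1), counts divided by 4, no filter, a filter of 2 FPKM, a replicate block, and leaving out each library.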

Additional observations from a re-analysis of the deposited data

Results flagged for a closer look

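Of 104 groups of 5 libraries (52 genes in 2 groups), Atp6v0d2 in Sham was at 0 throughout and had no range to examine. In 4 of the other groups the highest or the lowest library lay apart by more than 0.71 of the group's whole range. Chance gives such a gap in about 1 in 20 groups. For Lipa, TBI replicate 1 had 3.68 FPKM and the other TBI libraries 2.97 to 3.16 FPKM. Man2b1 was at 5.45 FPKM in Sham replicate 4 against 5.01 to 5.11 FPKM in the other Sham libraries. Laptm4a had 80.9 FPKM in TBI replicate 4 and 90.0 to 91.5 FPKM in the rest of that group, and Atp6ap2 at 73.3 FPKM in Sham replicate 3 against 81.8 to 83.1 FPKM. The calls of Lipa and Man2b1 remained without the library concerned.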

How the results depend on the processing

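The 15 called genes of the set kept their call under both other scalings, DESeq2, the 3 limma fits, counts divided by 4, no filter and the filter of 2 FPKM. Psap and Asah1 were gained in DESeq2 and limma (17 genes), and Atp6v0e too on log2(TPM + 1) (18 genes), where 1 pump subunit was then called (limma adjusted p = 0.0263) and the pump median was 0.011 in place of -0.046. With the replicate number as a block, 11 genes kept their call and 4 of the 7 hydrolases were called, since Lipa, Gusb and Fuca1 were lost together with the cofactor Gm2a (edgeR adjusted p = 0.0768, 0.0611, 0.0506 and 0.0883), at log2 changes of 0.435, 0.778, 0.469 and 0.376. The numbers were not taken as pairing the mice, because the correlations of same-numbered libraries were 0.002, 0.165, 0.112, -0.141 and 0.073 and only replicate 2 matched its own number best. Leaving out 1 library at a time gave 14 to 17 called genes of the set, 2 to 4 cofactors, 0 to 1 pump subunits, 7 to 10 further lysosomal genes, and 441 to 659 genes higher and 37 to 84 lower overall. The log2 change of Atp6v0c ran from -0.013 (without TBI replicate 4) to 0.527 as libraries were left out, and that of Atp6v0d1 turned to 0.003 on log2(TPM + 1), both uncalled. Over all tested genes, 582 were higher, 337 with the filter of 2 FPKM and 373 with the block. Lower genes numbered 77, 229 in DESeq2, 42, 39 and 27 in limma on log2(FPKM + 1), log2(FPKM + 0.1) and log2(TPM + 1), 43 with no filter, 48 with the filter of 2 FPKM and 29 with the block. The cause of these shifts was not tested. Depth limits Atp6v0d2 most, with 0 to 65 counts a library.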
